A study of Mus musculus with 59 samples.

Results

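The genes described here are 32 genes of myelin and of mature oligodendrocytes, chosen by symbol and matched by Ensembl gene ID to the 18088 genes of a normalised expression table. All 32 were found, each under 1 ID, and all 32 passed the filter on low values described below. They were measured by RNA sequencing of the prefrontal cortex in 59 libraries from C57BL/6J mice at postnatal day 25, from wild-type mice and from mice heterozygous for the Dyrk1a I48X allele (Dyrk1a+/I48X). Vehicle, lithium or fluoxetine had reached the pups through their mother's milk from postnatal day 3 to 24. There were 10 wild-type vehicle libraries, 10 wild-type lithium libraries, 9 wild-type fluoxetine libraries and 10 heterozygous libraries under each of the 3 treatments, with 5 females and 5 males in each except for 4 males among the wild-type fluoxetine libraries. The study follows 1 mutant allele on 1 strain, and the labels do not give the litters, so the p-values below measure the spread between libraries, some of which may come from pups of the same dam.

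Oligodendrocytes wrap axons in myelin, a compacted stack of membrane that insulates the axon and speeds conduction. In the mouse forebrain most of this wrapping takes place in the first weeks after birth, so the age studied falls in the period of active myelination. Lineage factors of the OLIG and SOX families set up the cell type, MYRF then switches on the myelin genes, and the sheath is built from a few very abundant proteins and from lipids such as galactosylceramide and sulfatide. DYRK1A is a protein kinase whose loss of 1 copy causes a neurodevelopmental disorder in people.

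The members were ordered by role. The 15 sheath and membrane proteins were Mbp and Mobp (compaction of the cytoplasmic faces of myelin), Mag and Mog (adhesion and surface proteins), Cnp (a phosphodiesterase of non-compact myelin), Mal, Cldn11 (the claudin of radial tight junctions), Opalin, Ermn (an actin-binding protein), Tspan2, Ppp1r14a, Plekhb1, Gpr37, Tmem125 and Hapln2 (a node of Ranvier link protein). The 4 lipid genes were Ugt8a and Gal3st1, which make galactosylceramide and sulfatide, Fa2h, which hydroxylates their fatty acids, and Aspa, which releases acetate from N-acetylaspartate. The 6 transcription factors were Myrf, Sox10, Sox8, Olig1, Olig2 and Nkx6-2. The remaining 7 were the connexins Gjb1 and Gjc3, the iron carrier Trf, the carbonic anhydrase Car2, the lysophospholipase Enpp2 (autotaxin), the lipocalin Apod and Qdpr, an enzyme of tetrahydrobiopterin recycling.

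Because most of these genes rose and fell together from library to library, the 250 bases before the RefSeq transcription start (assembly GRCm38.p6) are shown for 4 members: Mobp, Mag and Mog, which followed the shared pattern closely, and Sox8, which did not. Promoter entries matched 24 of the 32 members, with 33 promoters in all. The sequences are written 5′ to 3′ on the gene's strand, and capitals mark matches on either strand to ACAANG (a core SOX site), CTGGNAC (a MYRF site) or the E-box letters CAGCTG and CAGATG; no 2 matches overlapped in the member promoters.
Mobp (chr9:120149492-120149741, plus strand): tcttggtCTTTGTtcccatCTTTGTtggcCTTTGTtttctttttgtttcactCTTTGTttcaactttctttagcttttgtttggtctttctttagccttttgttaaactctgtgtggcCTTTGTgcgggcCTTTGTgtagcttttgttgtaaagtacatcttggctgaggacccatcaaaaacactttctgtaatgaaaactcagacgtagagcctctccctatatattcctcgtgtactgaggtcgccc
Mag (chr7:30914864-30915113, minus strand): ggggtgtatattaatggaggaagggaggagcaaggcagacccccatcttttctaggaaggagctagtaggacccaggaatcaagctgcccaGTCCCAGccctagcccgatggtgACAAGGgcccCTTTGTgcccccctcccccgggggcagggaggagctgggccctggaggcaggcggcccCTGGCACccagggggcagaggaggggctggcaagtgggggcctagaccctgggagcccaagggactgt
Mog (chr17:37023399-37023648, minus strand): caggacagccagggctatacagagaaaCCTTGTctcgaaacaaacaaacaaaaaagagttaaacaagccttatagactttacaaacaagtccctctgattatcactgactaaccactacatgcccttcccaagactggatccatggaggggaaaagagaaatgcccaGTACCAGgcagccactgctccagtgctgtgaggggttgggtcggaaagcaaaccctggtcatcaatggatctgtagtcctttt
Sox8 (chr17:25570687-25570936, minus strand): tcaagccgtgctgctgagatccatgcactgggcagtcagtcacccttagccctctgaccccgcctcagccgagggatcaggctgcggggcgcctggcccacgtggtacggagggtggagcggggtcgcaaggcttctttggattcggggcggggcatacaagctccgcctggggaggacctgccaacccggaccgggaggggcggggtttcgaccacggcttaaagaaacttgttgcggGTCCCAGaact

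The Mobp window held 6 SOX matches and no MYRF match. The Mag window shown held 2 SOX and 2 MYRF matches, the Mog window held 1 of each, and the Sox8 window held 1 MYRF match and no SOX match. None of these 4 windows held an E-box of the letters searched. Another Mag window (chr7:30914322-30914571) held 1 SOX match and no MYRF match. Some members had more than 1 promoter entry, and some of these windows overlapped, so a site could count more than once. Over all 33 member promoters, 19 (57.6%) held a SOX match, 12 (36.4%) a MYRF match and 11 (33.3%) an E-box, beside 36.3%, 16.1% and 25.5% of all 32851 promoters of the same length. These are counts of letters in a window and not of bound sites. The windows of Cldn11, Ugt8a and Mal, which also followed the shared pattern closely (r = 0.95, 0.96 and 0.92), held no match of any kind. That of Apod, which did not follow it (r = 0.08), held 1 SOX match, 1 MYRF match and 1 E-box. A link between matches and the shared pattern was not tested.

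Total counts recovered per library ran from 24391022 to 33842466, with a median of 27601196. Dyrk1a itself averaged 2232 ± 55.7 normalised counts in wild-type vehicle libraries and 2326 ± 65.9 in heterozygous vehicle libraries (SD, n = 10 each). The gene-level value does not separate the 2 alleles and so does not check the genotype labels. In the heterozygous fluoxetine libraries Dyrk1a reached 4214, in male 3, against a group median of 2348. Markers of the olfactory bulb, a tissue next to the frontal cortex, varied over a far wider range than the members did. The summed normalised count of 15 of 16 such markers found in the table ran from 5393 to 58086 over the libraries, with medians of 6776 in wild-type vehicle, 8441 in wild-type lithium, 24343 in wild-type fluoxetine, and 23643, 23566 and 24676 in heterozygous vehicle, lithium and fluoxetine libraries. No olfactory bulb marker had a median of 0. In bulk tissue, fewer oligodendrocytes and less RNA per oligodendrocyte cannot be told apart.

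Levels were compared between genes as mean normalised counts per kilobase of annotated exon. Mbp was the most abundant member at 5787 per kilobase, followed by Mobp at 1817, Cnp at 1601, Mal at 1494 and Cldn11 at 1412. The order then passed through Apod (1264), Enpp2 (1124) and Car2 (1067), which other brain cells also express. Among the transcription factors Olig1 was highest at 896 per kilobase, and Sox8 (290), Sox10 (248), Olig2 (193), Myrf (76.8) and Nkx6-2 (44.3) followed. Aspa (44.5) and Nkx6-2 were the lowest of the 32.

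Most members varied together. After group means (12 groups) were subtracted on the log2 scale, the 496 pairs of members had a median Pearson r of 0.65 over the 59 libraries, and 457 pairs were above 0. The highest pair reached 0.98 and the lowest -0.56. Mog and Mobp tracked the mean of the other members most closely, each with r = 0.97, and Fa2h, Mbp, Cnp and Ugt8a each had r = 0.96. The transcription factors were spread out: Nkx6-2 had r = 0.80, Myrf 0.76, Olig1 0.69, Olig2 0.68, Sox10 0.38 and Sox8 0.36. Car2 (0.21), Apod (0.08) and Enpp2 (-0.12) hardly followed the rest. These correlations are descriptions, since all pairs share the same libraries and the same scaling. Without 1 library, heterozygous lithium female 1, the median r was 0.59 and the order of the extremes was similar, with Mobp and Mog at 0.95, Sox8 at 0.40 and Apod at -0.03.

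Genes outside the set were then ordered by the likeness of their residual pattern to the member mean. Among the closest were Tmem88b (r = 0.95 over 59 libraries), Prr18 (0.94), the protease Adamts4 (0.93), Plekhh1 (0.92) and Nipal4 (0.89). The deep layer neuron factor Bcl11b was eighth (0.87), followed by Filip1 (0.86), Anln (0.85), Pdlim2 (0.85) and Sept4 (0.85). Bcl11b had r = 0.81 and ranked 14th without heterozygous lithium female 1. The mean of 30 other genes of myelinating oligodendrocytes had r = 0.97 with the member mean, the mean of 10 genes of committed and newly formed oligodendrocytes 0.72, and the mean of 12 precursor genes 0.69. The olfactory bulb marker mean had r = 0.23 with all libraries and 0.01 without heterozygous lithium female 1.

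**Figure D1:**
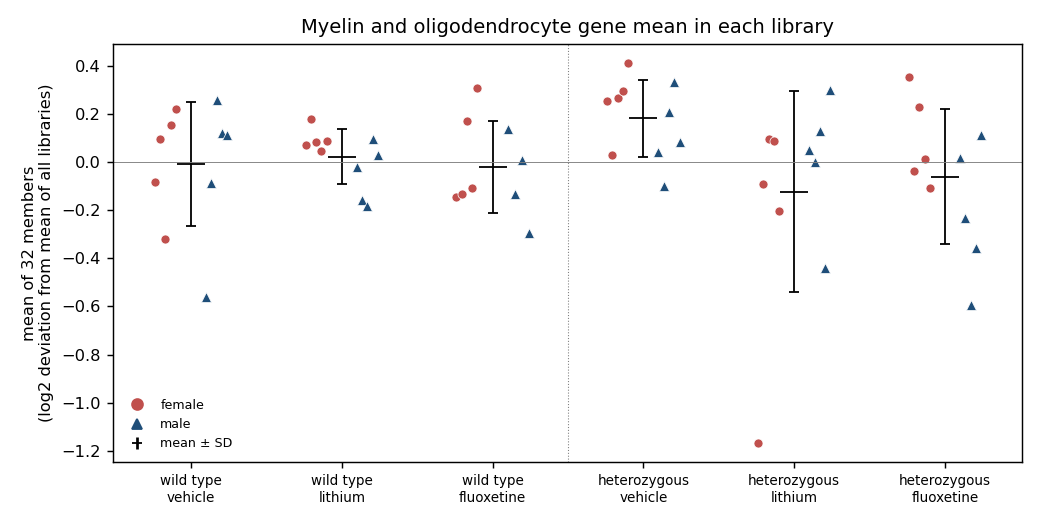
Mean of the 32 members in each library, as its log2 distance from the average library, by genotype, drug and sex. Each point is 1 library, and the bars mark the mean ± SD of each group of genotype and drug. The group means of genotype and drug lie between -0.12 and 0.18, and heterozygous lithium female 1 stands at -1.17.

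Heterozygous lithium female 1 had by far the lowest values. Its member mean was -1.17, on the log2 scale where the average library is 0. The other 4 females of its group stood at -0.20, -0.09, 0.09 and 0.10. It was the lowest of the 59 libraries for 20 members and below the other 4 females of its group for 28. Mbp was 13902 normalised counts in this library against 37916 to 53936 in the other 4 females. Mobp was 2538 against 9918 to 13885, and Mog was 290.5 against 1006 to 1329. Hapln2 was furthest below the other females, with a difference of -2.56 on the log2 scale.

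A few members did not share the deficit. Sox8 was 865.0 against 857.0 to 930.4 in the other 4 females, Car2 was 2617 against 2130 to 2734, and Qdpr was 1359 against 1326 to 1476. Enpp2, at 9860, was the highest of all 59 libraries. Among the 6 factors Olig2 was at 334.2 against 546.8 to 594.6, and Sox10 was at 487.1 against 620.5 to 946.5. Marker lists of other cells stood apart in the same library as well, ranked here from the lowest of the 59 by the list mean, in which each gene has equal weight. The deep layer neuron, striatal, olfactory bulb and precursor lists were the lowest, and the interneuron list was 3rd. The blood list was the highest (59th), the endothelial list was 58th, and the astrocyte, microglia and leptomeningeal lists were each 57th. Cortical projection neuron markers (35th) and cholesterol synthesis genes (27th) lay in the middle. Ranks by summed counts, which abundant genes carry, differed for some lists: projection neuron markers were then the highest at 170657, striatal markers 49th, precursor markers 12th and olfactory bulb markers 5th. The part of these differences in the low myelin values was not tested.

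The next lowest member means were -0.59 in heterozygous fluoxetine male 3, -0.56 in wild-type vehicle male 1, -0.44 in heterozygous lithium male 4 and -0.36 in heterozygous fluoxetine male 4. In wild-type vehicle male 1, 27 members were below the rest of the group, with a median difference of -0.82 on the log2 scale. In fluoxetine male 3 the lipid genes were lowest, with a mean of -1.17, while the 6 factors averaged -0.22. The low values were thus not confined to 1 library, 1 genotype or 1 drug. The pooled SD of the member mean within groups was 0.253.

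The first question was whether the Dyrk1a allele changed these genes in the absence of a drug. In vehicle mice none of the 32 members passed the test (limma on log2 of the normalised count plus 1, with Benjamini-Hochberg adjustment over 17901 genes and a threshold of 0.05), while 13.1% of all genes tested did. The fitted differences leaned upward: 30 of 32 members were above 0, with a median of 0.19 beside -0.00 for all genes. All 15 sheath and membrane genes and all 6 factors were above 0, with medians of 0.22 and 0.16. At an unadjusted p under 0.05, 8 members were higher and none lower, a share to be read beside 14.9% of all genes that were higher at that level. The smallest adjusted p was 0.0729, for Sox10. Without heterozygous lithium female 1, which is in neither group, 1 sheath and membrane gene was called higher, beside 14.8% of all genes called. In that fit 11 members reached an unadjusted p under 0.05 with limma, beside 32.6% of all genes.

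Mobp illustrates the overlap. It ran from 5644 through a median of 13169 to 15158 normalised counts in wild-type vehicle libraries and from 11082 through 14228 to 18611 in heterozygous vehicle libraries. The heterozygous group lay higher (0.33 ± 0.19 on the log2 scale), but the ranges overlapped from 11082 to 15158. Of the 10 heterozygous libraries, 9 were above the wild-type mean of their sex and 4 were above every wild-type library. Mbp averaged 49068 ± 11227 in wild-type and 56030 ± 7708 in heterozygous vehicle libraries (SD, n = 10 each). Wild-type vehicle male 1 was the lowest of its group for both genes. In the same comparison 13 of 15 olfactory bulb markers were called higher, with a median of 1.42; with the olfactory bulb mean as a covariate the member median was 0.12, 0 members were called, and the number of all genes called was 2 in place of 2353. Their part in the upward lean was not tested.

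Under lithium and under fluoxetine no member passed the test between the genotypes. Under lithium the member median was -0.16 with 26 of 32 below 0, and under fluoxetine it was -0.04 with 22 below 0. The smallest adjusted p-values were 0.233 and 0.237. In each of these comparisons 0.0112% of all genes were called. At an unadjusted p under 0.05, 5 members were lower and 2 higher under lithium, beside 18.3% of all genes in either direction, and 2 were lower and 1 higher under fluoxetine, beside 14.7%. Without heterozygous lithium female 1 the median under lithium was -0.05, with 1 member lower and 3 higher at that level beside 24.6% of all genes.

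Averaged over the 3 treatments, 2 members differed between genotypes, beside 21.4% of all genes (8.97% higher and 12.4% lower). Sox10, the factor that drives oligodendrocyte differentiation, was higher in heterozygous mice by 0.26 ± 0.07 (SE, log2 scale, limma adjusted p = 0.0112). Its gene lies at chr15:79154908-79165240 of GRCm38 on the minus strand. It averaged 694 ± 135, 641 ± 64.2 and 712 ± 114 normalised counts in wild-type vehicle, lithium and fluoxetine libraries, and 856 ± 168, 772 ± 185 and 853 ± 172 in the heterozygous ones (SD). The heterozygous mean was the higher of the 2 under each treatment, and 7, 8 and 7 of 10 heterozygous libraries were above the wild-type mean of their sex. The ranges overlapped: wild-type vehicle libraries ran from 517.8 to 1034, and heterozygous vehicle libraries from 650.3 to 1185. With the olfactory bulb mean as a covariate the difference was 0.19 and did not pass (adjusted p = 0.106).

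Enpp2, whose product makes the signalling lipid lysophosphatidic acid, was lower in heterozygous mice by this average (-0.24 ± 0.08, limma adjusted p = 0.0359). Its gene lies at chr15:54838901-54952892. Heterozygous libraries averaged 5797 ± 1313 under vehicle, 7181 ± 1204 under lithium and 5259 ± 1674 under fluoxetine, and wild-type libraries 6799 ± 915, 7506 ± 724 and 6410 ± 921 (SD). Under each treatment 7 of 10 heterozygous libraries were below the wild-type mean of their sex. Fluoxetine male 4 was the lowest at 1636. Without heterozygous fluoxetine males 3 and 4 the difference was -0.15 (adjusted p = 0.0569), with edgeR the adjusted p was 0.0589 and with the olfactory bulb covariate it was 0.18. Gm26684, on the opposite strand of Enpp2, was lower as well (-0.37 ± 0.12, adjusted p = 0.0271), and the processing notes do not say whether the counting used the strand. Without heterozygous lithium female 1, 3 members were higher (Sox10, Apod, Hapln2) and 2 lower (Enpp2, Car2) in this average, beside 26.2% of all genes.

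**Figure D2:**
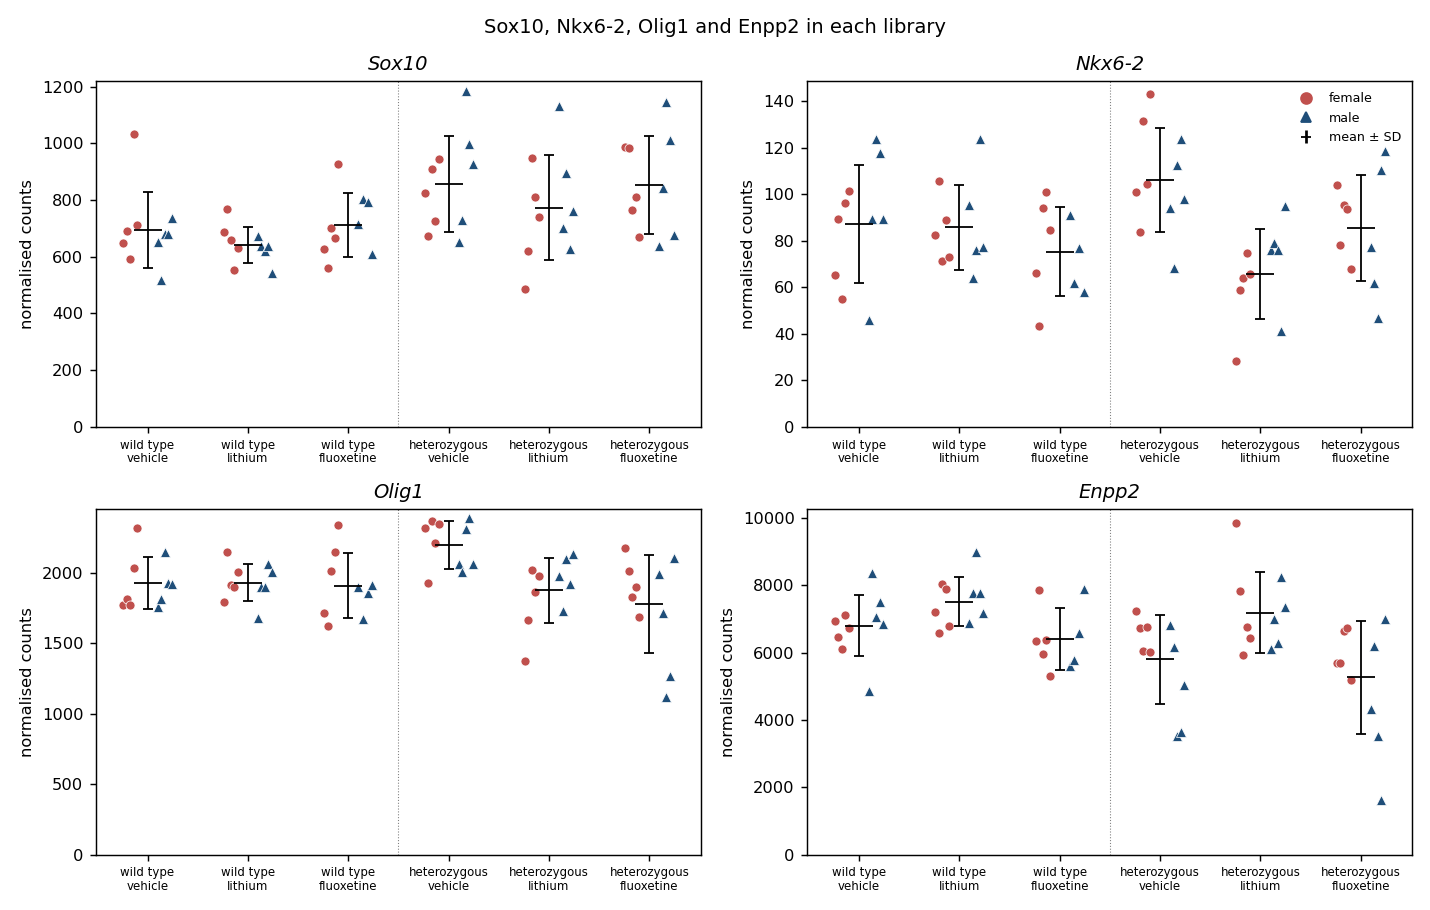
Normalised counts of Sox10, Nkx6-2, Olig1 and Enpp2 in each library by genotype, drug and sex. Points are libraries, bars are the mean ± SD of each group of genotype and drug, and each vertical axis starts at 0. The highest Sox10 values, up to 1185, are in heterozygous libraries, and Nkx6-2 is lowest, at 28.4, in heterozygous lithium female 1.

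The second question was what lithium did in each genotype. In heterozygous mice 1 member was called, lower, beside 0.497% of all genes (0.251% lower). Nkx6-2, a homeodomain factor of mature oligodendrocytes, fell by 0.72 ± 0.18 on the log2 scale (SE, limma adjusted p = 0.0465). It ran from 68.4 through a median of 102.5 to 142.9 normalised counts under vehicle and from 28.4 through 70.2 to 95.1 under lithium. All 10 lithium libraries were below the vehicle mean of their sex, and 5 were below every vehicle library, though the 2 ranges overlapped. In wild-type mice Nkx6-2 averaged 87.4 ± 25.4 under vehicle and 85.8 ± 18.2 under lithium (SD, n = 10 each). Nkx6-2 lies at chr7:139579376-139582797 and is overlapped on the opposite strand by Inpp5a, which showed -0.02 in the same comparison (adjusted p = 0.943).

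The call for Nkx6-2 lay close to the threshold and was lost in 13 of the 20 fits that each left out 1 library. Without heterozygous lithium female 1 the difference was -0.60 and the adjusted p was 0.148. It was also lost without lithium female 2, lithium males 1 to 4, vehicle females 1, 3, 4 and 5, or vehicle males 3, 4 and 5, left out 1 at a time, with adjusted p-values from 0.058 to 0.135. The direction was the same in each of these fits.

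The other members leaned the same way without passing. In heterozygous mice 30 of 32 differences were below 0, with a median of -0.32 beside 0.00 for all genes, and 24 members were lower at an unadjusted p under 0.05 beside 5.13% of all genes. The sheath genes had a median of -0.42 with 15 of 15 below 0, the lipid genes -0.33 with 4 of 4, the factors -0.19 with 5 of 6, and the carriers and enzymes -0.11 with 6 of 7. Mobp showed -0.48, Mog -0.45, Mbp -0.42 and Mag -0.36. Only Olig2 (0.07) and Enpp2 (0.33) were above 0.

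Without heterozygous lithium female 1 the lean was smaller but pointed the same way. The median was -0.19 and 30 of 32 members were still below 0. At an unadjusted p under 0.05, 11 members were lower, beside 3.92% of all genes. None was called (0 with limma), beside 0.285% of all genes. The sheath genes had a median of -0.24 and the factors -0.14. The remaining lithium libraries overlapped the vehicle libraries for the sheath genes: Mog ran from 746.7 to 1746 in the 9 other lithium libraries and from 1123 to 1763 under vehicle. Mobp ran from 7597 to 16649 and from 11082 to 18611.

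**Figure D3:**
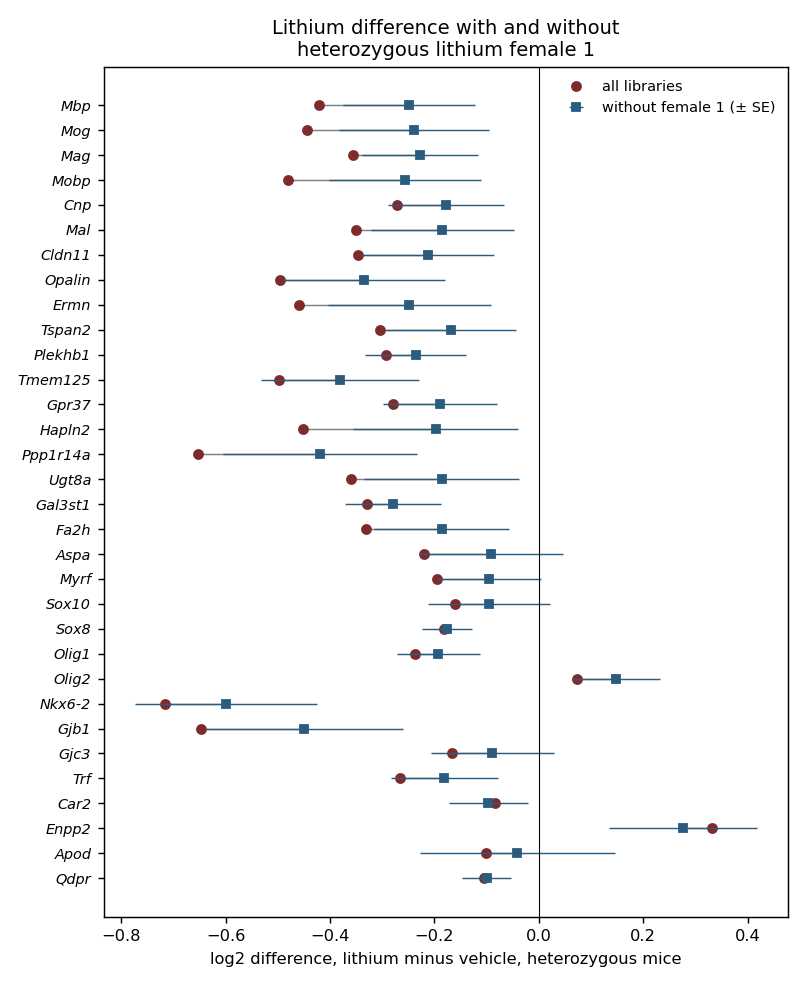
Fitted log2 difference, lithium minus vehicle in heterozygous mice, for each of the 32 members with all libraries and without heterozygous lithium female 1 (± SE for the latter). The sheath genes move toward 0 when the library is left out, and 30 of the 32 differences stay below 0 in both fits.

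Within each sex, the median lithium difference in heterozygous mice was -0.52 in females, with 30 members below 0, and -0.10 in males, with 28 below 0. The female median was -0.30, with 28 below 0, when heterozygous lithium female 1 was left out. The difference between the sexes did not pass for any member (0 of 32, smallest adjusted p = 0.0696, 9 lower at an unadjusted p under 0.05 where 15% of all genes were), beside 3.07% of all genes, and its median was -0.43. When that library was left out the median was -0.18, and 3 members were lower at an unadjusted p under 0.05 beside 16.7% of all genes. Beside these values, the 7 blood markers had a median lithium difference of 0.69 in heterozygous mice and the 15 olfactory bulb markers one of -0.28, with 0 called in either list by limma. These medians were 0.55 and -0.02 without heterozygous lithium female 1. Their part was not tested.

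In wild-type mice lithium left the set centred near 0, with a median of 0.03 and 23 of 32 members above 0. A single member was called, lower, beside 0.162% of all genes (0.0838% lower). Sox8, a relative of Sox10 that acts with it in the oligodendrocyte lineage, fell by 0.24 ± 0.05 on the log2 scale (SE, limma adjusted p = 0.00651). It ran from 946.4 through a median of 997.5 to 1079 normalised counts in the 10 wild-type vehicle libraries and from 758.2 through 826.2 to 983.6 in the 10 lithium libraries. All 10 lithium libraries were below the vehicle mean of their sex, and 9 were below every vehicle library. In heterozygous mice Sox8 was 1013 ± 107 under vehicle and 890 ± 39.9 under lithium (SD, n = 10 each), a difference of -0.18 ± 0.05 that missed the threshold (adjusted p = 0.0505; without heterozygous lithium female 1 -0.18, adjusted p = 0.109). Averaged over the genotypes it was -0.21 ± 0.03 (adjusted p = 4.77e-05), the only member called in that average beside 2.12% of all genes (0.966% lower).

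The lithium differences of the 2 genotypes were then compared directly. For Sox8 the difference of differences was 0.06. Over the members its median was -0.34, with 30 of 32 below 0 and 13 lower at an unadjusted p under 0.05, beside 1.52% of all genes. None passed adjustment, and 0% of all genes did (0 with limma and 0 with edgeR, 497 at an unadjusted p under 0.05), so a lithium difference particular to either genotype was not shown for any member. Without heterozygous lithium female 1 the median was -0.23, with 4 members lower at an unadjusted p under 0.05 beside 1.05% of all genes.

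The third question was what fluoxetine did. Sox8 was lower under fluoxetine in both genotypes. In wild-type mice it fell by 0.25 ± 0.05 on the log2 scale (SE, limma adjusted p = 0.0057), the only member called there beside 0.447% of all genes (0.263% lower). The 9 wild-type fluoxetine libraries ran from 748.7 through 829.9 to 1044, and 8 of them were below every vehicle library; female 5 was the exception. In heterozygous mice Sox8 fell by 0.27 ± 0.05 (adjusted p = 0.000894). Its range was 888.3 to 1209 under vehicle and 706.4 to 931.2 under fluoxetine. All 10 fluoxetine libraries were below the vehicle mean of their sex and 7 were below every vehicle library. Averaged over genotypes the difference was -0.26 ± 0.03 (adjusted p = 1.07e-06), again the only member called beside 3.09% of all genes (1.64% lower). The lithium and fluoxetine comparisons share their vehicle libraries.

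The Sox8 calls were stable to single libraries. In wild-type mice and in both averages Sox8 passed under each alternative setting and without any single library. In heterozygous mice the fluoxetine call was lost in 1 setting, the fit of only the 4 groups compared (adjusted p = 0.0698). Sox8 lies at chr17:25565892-25570686 on the minus strand, and 2810468N07Rik overlaps it on the opposite strand. That gene was not called in the same comparisons, with -0.06 for lithium in wild-type mice, -0.08 for fluoxetine in wild-type mice and -0.19 for fluoxetine in heterozygous mice.

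**Figure D4:**
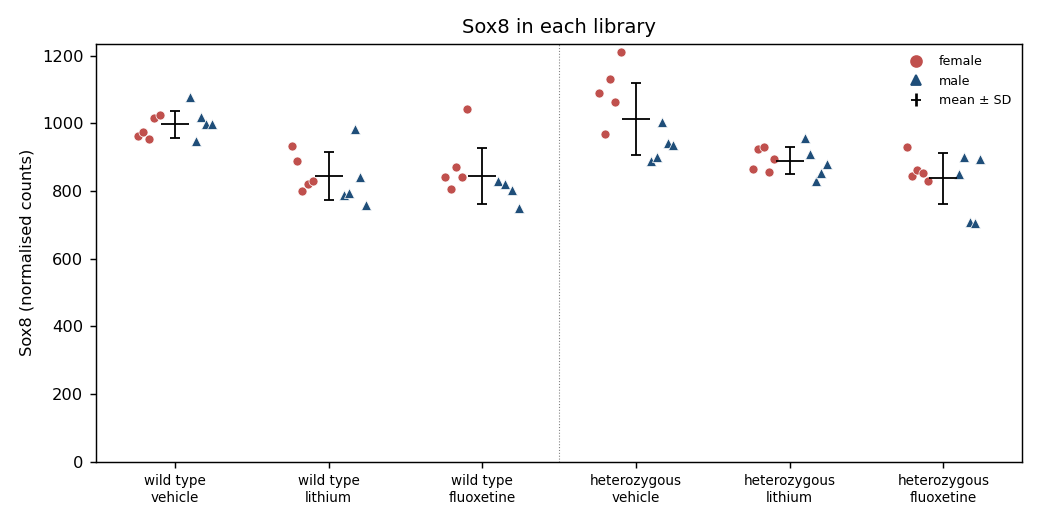
Sox8 normalised counts in each library by genotype, drug and sex, with the mean ± SD of each group of genotype and drug as bars and the axis starting at 0. Vehicle libraries lie between 888.3 and 1209, and of the lithium and fluoxetine libraries the highest is wild-type fluoxetine female 5 at 1044.

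In the fit with all libraries, fluoxetine in heterozygous mice was the comparison with the most members called: 3 were lower and 0 higher, beside 4.27% of all genes (2.06% lower). Besides Sox8 these were Olig1, a basic helix-loop-helix factor needed for oligodendrocyte maturation (-0.33 ± 0.08, limma adjusted p = 0.0142), and Gal3st1, the sulfotransferase that makes sulfatide (-0.31 ± 0.09, adjusted p = 0.042). Olig1 (chr16:91269772-91271933) ran from 1924 through 2257 to 2389 normalised counts under vehicle and from 1115 through 1862 to 2176 under fluoxetine. All 10 fluoxetine libraries were below the vehicle mean of their sex, and 6 were below every vehicle library. Gal3st1 (chr11:3983636-3999326) ran from 239.1 through 270.6 to 315.0 under vehicle and from 115.8 through 236.7 to 266.7 under fluoxetine. All 10 fluoxetine libraries were again below the vehicle mean of their sex, and 5 were below every vehicle library.

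Fluoxetine males 3 and 4, in which Dyrk1a was at 4214 and 3278, held the lowest Olig1 values (1115 and 1268), and male 3 held the lowest Gal3st1 value. Without these 2 libraries Olig1 showed -0.19 (adjusted p = 0.242) and Gal3st1 -0.18 (adjusted p = 0.411), while Sox8 was still called. Without male 3 alone Gal3st1 showed -0.22 (adjusted p = 0.15), and its call was also lost without fluoxetine females 2 to 5, fluoxetine male 4, vehicle females 1, 3, 4 and 5 or vehicle males 3 to 5, left out 1 at a time. In the fit of only the 4 groups compared none of the 3 members passed.

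Over the whole set the fluoxetine median was -0.25 in heterozygous mice, with 31 of 32 below 0, and -0.03 in wild-type mice, with 22 below 0. At an unadjusted p under 0.05, 13 members were lower in heterozygous mice, beside 11.1% of all genes. The sheath genes had a median of -0.28 there, with 14 of 15 below 0, the lipid genes -0.33, the factors -0.17 and the carriers and enzymes -0.14. Mog showed -0.31, Mobp -0.29, Mbp -0.24 and Mag -0.21, none of which passed. The contrast between the wild-type and heterozygous fluoxetine differences passed for no member (0 of 32, smallest adjusted p = 0.126 for Olig1, median -0.22, 5 lower at an unadjusted p under 0.05 where 10.6% of all genes were), beside 0% of all genes (0 with limma and 0 with edgeR, 3917 at an unadjusted p under 0.05). With the olfactory bulb covariate that median was -0.11.

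In both drug comparisons of heterozygous mice the reference was the same vehicle group, the group with the highest member mean of the 6. Its 10 libraries had member means from -0.10 to 0.41, with a mean of 0.18 ± 0.16 (SD), beside -0.01 ± 0.26 in wild-type vehicle, 0.02 ± 0.11 in wild-type lithium, -0.02 ± 0.19 in wild-type fluoxetine, -0.12 ± 0.42 in heterozygous lithium and -0.06 ± 0.28 in heterozygous fluoxetine libraries. All 6 ranges overlapped.

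**Figure D5:**
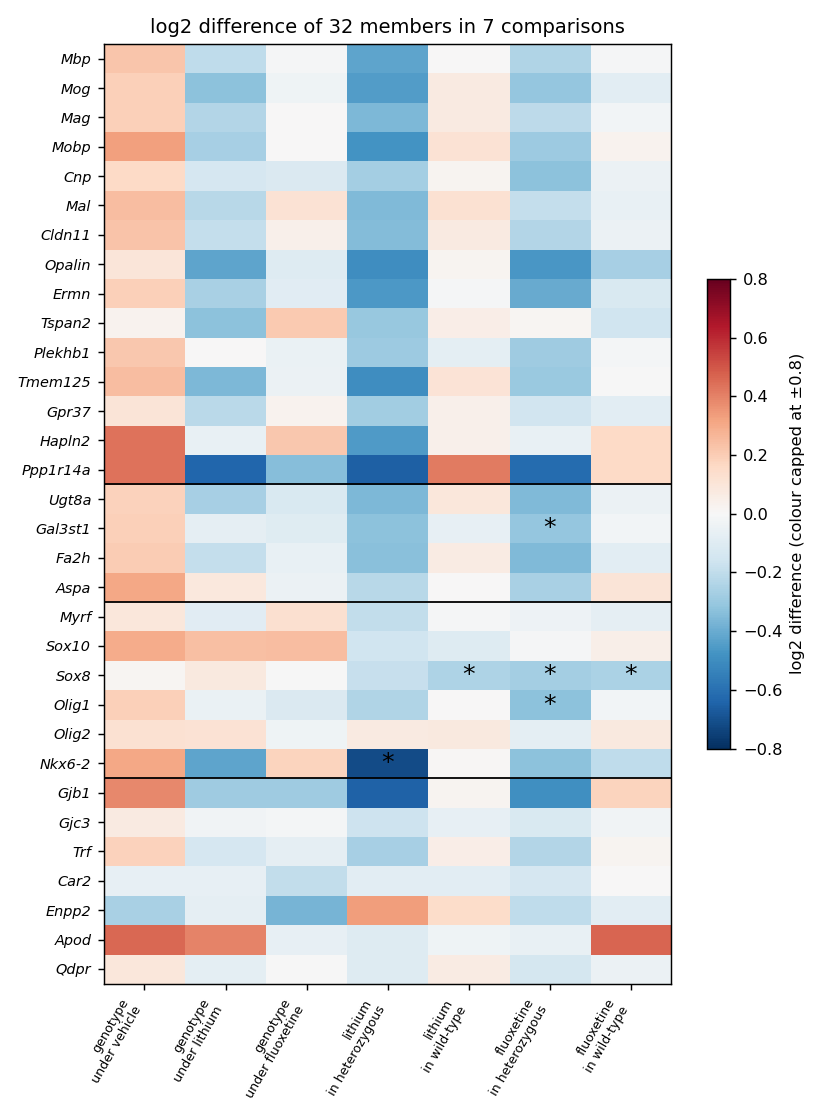
Fitted log2 differences of the 32 members in 7 comparisons, ordered by role, with the colour scale capped at 0.8 in either direction and calls marked. The heterozygous drug columns are mostly below 0 and the genotype column under vehicle mostly above 0. Sox8 is below 0 in both lithium and both fluoxetine columns, without a call for lithium in heterozygous mice.

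No member separated 2 groups completely. In each of the 7 comparisons of genotype or drug, the ranges of the groups overlapped for all 32 members; the share of all genes without overlap was 0.0279% for genotype under vehicle, 0.00559% under lithium and 0% under fluoxetine, 0.0391% for lithium and 0.0279% for fluoxetine in heterozygous mice, and 0.0782% and 0.106% in wild-type mice.

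Between the sexes no member was called (0 of 32, smallest adjusted p = 0.494, 3 higher in females at an unadjusted p under 0.05 where 3.69% of all genes were), beside 0.156% of all genes, and the median was 0.08 higher in females. Without heterozygous lithium female 1 the median was 0.12 and 14 members were higher in females at an unadjusted p under 0.05, beside 4.24% of all genes, and again 0 were called (limma). The genotype difference under vehicle was 0.23 in females and 0.14 in males by the member median. Its difference between the sexes was not called for any member (0 of 32), beside 16% of all genes. The smallest adjusted p was 0.0513, for Sox8, which averaged 1093 ± 88.3 in heterozygous and 987 ± 32.5 in wild-type vehicle females, and 934 ± 44.8 and 1008 ± 47.8 in the males (SD, n = 5 each).

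Other genes of the lineage were followed by lists. The 30 other genes of myelinating oligodendrocytes had a median of -0.26 under lithium in heterozygous mice, with 29 of 30 below 0, and of -0.15 without heterozygous lithium female 1, with 28 of 30 below 0. Under fluoxetine in heterozygous mice 1 of them was lower, Prr5l (-0.52 ± 0.12, limma adjusted p = 0.0123), with a median of -0.21. In the genotype comparison under vehicle 3 were higher (Efhd1, Gsn and Pla2g16) and 1 was lower (Tppp), beside 6.03% and 7.12% of all genes, with a median of 0.14. With the olfactory bulb covariate 0 of the 30 were called there (limma). Of 12 precursor genes, 0 passed for lithium in heterozygous mice (limma, median -0.01, and 0.03 without heterozygous lithium female 1) and 1 was lower for fluoxetine, Mmp15 (-0.23 ± 0.06, adjusted p = 0.03). Of 10 genes of committed and newly formed oligodendrocytes, 0 passed in either comparison (limma), with medians of 0.01, the same without heterozygous lithium female 1, and -0.11.

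Cholesterol, which limits the growth of myelin membrane and is also made by neurons and astrocytes, was followed through 23 genes of its synthesis and regulation. Under fluoxetine 7 of them were lower in wild-type mice (median -0.25, 23 of 23 below 0), 5 in heterozygous mice (median -0.13) and 11 in the average of the genotypes, beside 0.263%, 2.06% and 1.64% of all genes. With the olfactory bulb covariate these counts were 1, 7 and 10. The sterol carrier Stard4 changed most in that average, by -0.39 ± 0.04, followed by the demethylase Cyp51 (-0.29 ± 0.05). Under lithium 1 was lower in heterozygous mice, Stard4 (-0.24 ± 0.06, limma adjusted p = 0.0424), and without heterozygous lithium female 1 it showed -0.25 (adjusted p = 0.0613). In heterozygous vehicle mice 7 were lower than in wild type, among them Hmgcs1 (-0.30 ± 0.08, adjusted p = 0.0222), beside 7.12% of all genes, while the myelin members of the same libraries leaned upward. With the olfactory bulb covariate 0 of the 23 were called in that comparison (limma) and the list median was -0.04 in place of -0.16. The cholesterol list mean of heterozygous lithium female 1 was -0.02, at the centre of all libraries.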

How the data were processed

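Prefrontal cortex RNA was made into poly(A)-selected libraries with a stranded kit, per the labels' protocols. The authors deposited 1 table of normalised signal, in which each value behaves as a read count divided by a size factor for its library; Salmon 0.11.2, DESeq2 1.19.11, R 3.6.0 and the build GRCm38 are named in the submitters' processing notes, with no roles given. Low values were whole multiples of 1 step per library (within 0.01 of a count), so read counts were recovered, with 100% of values whole in every library; in 3 libraries the step is close to 1. Total depth was 24391022 to 33842466 reads, and 0 columns were left unassigned. Of the IDs, 11 had no symbol and 20 symbols had more than 1 ID; no member was affected.

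The main test was limma 3.58.1 with a mean-variance trend on log2(value + 1), in R 4.3.3, for the 17901 genes that reached 10 in 4 or more libraries. The 12 groups of genotype, drug and sex each had a mean (47 residual degrees of freedom), and 15 comparisons were taken from that fit, with Benjamini-Hochberg adjustment over all genes tested and a threshold of 0.05. Fold changes are on the log2(value + 1) scale and understate the change of genes with few counts. No test was made on the set as a whole. List means are averages over genes of log2(value + 1) minus the gene's mean over all libraries. The script was tested on simulated data with known changes.

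The members and gene lists, and heterozygous lithium female 1 as the library to leave out, were chosen with earlier results of these data known. The choroid plexus list was added after the values were seen. Its 7 markers summed to between 103 and 3456 normalised counts over the libraries. The genes named are all members, up to 4 called genes of smallest p in each other list, Dyrk1a and the 12 genes most like the member mean, except some that are not reported here; measured genes that overlap a called member were added after their values were seen. The alternatives tried were a pseudocount of 5, no filter, a filter of 100, TMM factors, quantile normalisation, the replicate number as a block, edgeR 4.0.16 on the recovered counts, the olfactory bulb marker mean as a covariate, a fit of only the groups compared, and leaving out each library or heterozygous fluoxetine males 3 and 4. No pair of libraries of 1 group agreed within counting noise.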

Additional observations from a re-analysis of the deposited data

Results flagged for a closer look

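In 192 checks of 5 or 4 libraries each (the member mean and 15 members in 12 groups), 5 values, in 4 libraries, lay far from the rest of their group by the gap to the nearest library relative to the group's range. Chance flags about 1 group in 20. The member mean of heterozygous lithium female 1 was -1.17, and the nearest library of its group was at -0.20. That library had been picked out before these checks for its low myelin values, so this flag was known in advance. Olig2 in the same library was at 334.2 normalised counts, below the rest of its group. Olig2 in heterozygous lithium male 3 was at 627.8, above the rest of its group. Sox10 in wild-type vehicle female 4 was at 1034, above the other 4 females. Sox8 in wild-type fluoxetine female 5 was at 1044, the single drug-treated wild-type fluoxetine library inside the wild-type vehicle range.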

How the results depend on the processing

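The direction of the member median did not turn in any setting that leaves all libraries in for the comparisons with a median beyond 0.1 in size, and no named difference turned direction. The median of all genes was at most 0.02 in size in any fit. The larger moves in the number of members called were as follows. For lithium in heterozygous mice (1 called) it was 2 with a pseudocount of 5, with a filter of 100, with edgeR and with the olfactory bulb covariate, and 4 without heterozygous fluoxetine males 3 and 4. For fluoxetine in heterozygous mice (3 called) it was 5 with edgeR, 4 with the olfactory bulb covariate, 0 with only the groups compared and 1 without those males. For genotype averaged over drugs (2 called) it was 1 with quantile normalisation, 0 with the covariate, 1 without those males and up to 3 in the remaining settings; Enpp2 had an adjusted p of 0.0713 with quantile normalisation. For lithium averaged over genotypes (1 called) it was 2 with only the groups compared and 3 without those males, and for fluoxetine averaged over genotypes (1 called) it was 3 with the covariate. For genotype under vehicle (0 called) it was 2 without those males. For the sex contrast of genotype under vehicle (0 called) it was 1 with a filter of 100, 2 with quantile normalisation, 1 with edgeR and 2 without those males, and for the sex contrast of lithium in heterozygous mice (0 called) it was 1 without those males. Nkx6-2 had an adjusted p of 0.0861, Olig1 of 0.261 and Gal3st1 of 0.321 with only the groups compared.

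Leaving out 1 library at a time gave 0 to 2 members called for lithium in heterozygous mice, 2 to 7 for fluoxetine in heterozygous mice, 1 to 5 for genotype averaged over drugs, 0 to 3 for genotype under vehicle, 0 to 2 for genotype under fluoxetine, 1 to 2 for lithium and 1 to 3 for fluoxetine averaged over genotypes, 0 to 2 for the sex contrast of genotype and 0 to 3 for that of lithium; the other 6 comparisons kept their count. The 7 lower members under fluoxetine appeared without heterozygous fluoxetine male 1 or male 5, and 5 without vehicle male 2. Genotype under vehicle gave 3 higher members without heterozygous vehicle male 1 or wild-type vehicle female 4, 2 without heterozygous vehicle male 2 and 1 without heterozygous lithium female 1. Enpp2 lost its call, with adjusted p-values from 0.0521 to 0.0606, without heterozygous lithium female 3, lithium male 1, vehicle males 3 or 4, wild-type fluoxetine female 2, fluoxetine male 4 or vehicle male 2. The causes were not tested.

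The counts of all genes called depended more on the setting. Genotype under vehicle had 2353, and 2 with the covariate (100% higher in place of 45.9%), 139 with only the groups compared and 4083 without the 2 males; genotype averaged over drugs had 3823 and 134 with the covariate. Genotype under lithium had 2, 0 with the covariate and 9 without the males, and genotype under fluoxetine had 2, 44 with edgeR, 23 with the covariate, 0 with only the groups compared and 1 without the males. Lithium in heterozygous mice had 89, 151 with the covariate and 230 without the males; lithium in wild-type mice had 29, and 67, 57 and 84 with the covariate, with only the groups compared and without the males; the lithium average had 380, and 697, 656 and 809. Fluoxetine in heterozygous mice had 764, 1238 with edgeR, 2 with only the groups compared and 76 without the males. Fluoxetine in wild-type mice had 80, 32 with the covariate (25% higher in place of 41.2%), 1151 with only the groups compared and 522 without the males. The fluoxetine average had 553, 1676 with the covariate and 250 with only the groups compared. The sex contrast of genotype had 2857 and 0 with the covariate or only the groups compared. The sex contrast of lithium had 549 (25.5% higher; 41.8% with quantile normalisation), 920 with the filter of 100, 355 with the replicate block, 201 with the covariate, 2 with only the groups compared and 1878 without the males.

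With the replicate number as a block, each of the 15 comparisons had the same number of members called, 3 for fluoxetine and 1 for lithium in heterozygous mice among them. The numbers did not pair the libraries. Over 319 pairs of libraries with the same number in different groups the median correlation of deviations was -0.00, and 65 were over 0.1. Over 1276 pairs with different numbers in different groups it was -0.00 as well, and 275 were over 0.1. The fit of only the groups compared was not made for the genotype average and for sex, which use all 12 groups.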

Other observations

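Ppp1r14a had an SD of 0.51 on the log2 scale within groups, and 12.7% of all tested genes had a larger one; Gjb1 had 0.49 and Hapln2 0.48. Sox8 and Qdpr, at 0.10, were the steadiest, with 77.5% and 78.7% of genes having a larger spread. Mbp, at 0.36, had a larger spread than Sox8 and than 4 other transcription factors, Olig1 (0.18), Olig2 (0.21), Myrf (0.26) and Sox10 (0.27), and a smaller one than Nkx6-2 (0.41).

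Apod, a lipocalin, was set apart from the sheath genes. It averaged 2701 ± 1104 normalised counts in wild-type vehicle, 2539 ± 552 in wild-type lithium and 3539 ± 517 in wild-type fluoxetine libraries, and 3793 ± 1695, 3434 ± 1109.7 and 3568 ± 1283 in the heterozygous vehicle, lithium and fluoxetine libraries (SD). The highest value, 7742, was in a heterozygous vehicle library. Apod passed no comparison in the fit with all libraries; its genotype average was 0.26 ± 0.11 (limma adjusted p = 0.0655), and with the olfactory bulb covariate 0.07.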
